A study of Mus musculus with 12 samples.

Results

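The CC chemokines examined here were the 10 members of this secreted protein family that were chosen by name (Ccl2, Ccl3, Ccl4, Ccl5, Ccl6, Ccl7, Ccl9, Ccl17, Ccl22 and Ccl24), taken from the 23847 rows of each expression table. Each symbol matched 1 row, and each of the 10 reached 1 FPKM (a read level corrected for transcript length and for the size of the library) in at least 1 of 12 samples, as did 11191 of all rows. The samples were bone marrow-derived macrophages (BMDMs), grown for 6 days from the marrow of wild-type C57BL/6 mice aged 8 to 12 weeks in L929 supernatant, a source of the macrophage growth factor MCSF. Cells in the control group were left without stimulus, the IL-4 group received IL-4 at 20 ng/ml for 24 h, the LPS group received LPS at 100 ng/ml (the dose in the labels, while the methods of the study state it in a molar unit) for 3 h, and the IL-4+LPS group received IL-4 for 24 h before LPS was added for 3 h. Each group held 3 samples, and the question was whether earlier exposure to IL-4 alters what LPS does. The study describes separate animals and more than a single experiment, but the sample labels number the samples of a group without naming either, so the p-values given below measure the spread between these samples.

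CC chemokines are small secreted proteins that guide the migration of leukocytes by binding receptors of the CCR family, and they are named for a pair of adjacent cysteines. Macrophages stimulated with LPS through its receptor TLR4 activate NF-kB and interferon regulatory factors, and secrete ligands that attract monocytes and lymphocytes. IL-4 acts through STAT6 and directs macrophages toward alternative polarization, a state known for ligands that attract T helper cells of type 2 and eosinophils. Of the 10 genes, 7 were grouped as inflammatory. Ccl2 and Ccl7 encode monocyte attractants that bind CCR2, Ccl3, Ccl4 and Ccl5 encode attractants of monocytes and T cells, and Ccl6 and Ccl9 encode ligands of CCR1, which Ccl3 and Ccl5 also bind. The other 3 were grouped as linked to IL-4, since Ccl17 and Ccl22 encode ligands of CCR4 and Ccl24 encodes an eotaxin, which attracts eosinophils through CCR3.

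The feature that defines the family can be read in the coding sequences, and so is shown first, for 9 of the 10 genes. Each line holds 30 bases of the longest GENCODE vM21 coding sequence, read 5′ to 3′ on the strand of the gene, with the codons of the adjacent cysteines in capitals. Ccl24 held 2 such pairs of codons, of which the later is shown, and the others held 1 each.
Ccl2: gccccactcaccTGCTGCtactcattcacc
Ccl7: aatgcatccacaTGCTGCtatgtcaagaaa
Ccl4: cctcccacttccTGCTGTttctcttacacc
Ccl5: gacaccactcccTGCTGCtttgcctacctc
Ccl6: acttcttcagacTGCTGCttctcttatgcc
Ccl9: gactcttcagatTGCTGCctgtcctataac
Ccl17: gtaggccgagagTGCTGCctggattacttc
Ccl22: gaagacagtatcTGCTGCcaggactacatc
Ccl24: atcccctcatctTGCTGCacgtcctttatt
All 9 showed TGCTGC except Ccl4, whose second codon was TGT. The pair began at codon 33 to 36 in Ccl2, Ccl7, Ccl4, Ccl5, Ccl22 and Ccl24, at codon 43 in Ccl17, at codon 50 in Ccl6 and at codon 57 in Ccl9. Ccl6 and Ccl9 were also the members with 4 exons, where the other 8 had 3. Over the whole coding sequence the most alike were Ccl3 and Ccl4 (69.9% identical bases over the longer of the pair) and Ccl6 and Ccl9 (66.1%), and the least alike were Ccl2 and Ccl5 (42.1%). The coding sequence of Ccl2 has 447 bases and that of Ccl5 has 276, and a difference in length by itself lowers this share. The likeness between members did not extend to runs of 50 bases. In 9 of the 10 genes no 50-base word of the longest transcript was found in a transcript of another gene, and in Ccl9 2.0% of the words were shared.

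The genes lie in 3 places of the mm10 assembly. On chromosome 11, Ccl2 (chr11:82035577-82037452, plus strand) and Ccl7 (chr11:82045712-82047523, plus strand) are 8.3 kb apart. The second group on that chromosome begins 1478.3 kb further on with Ccl5 (chr11:83525779-83530518, minus strand), followed by Ccl9 (chr11:83572917-83578636, minus strand), Ccl6 (chr11:83587886-83593087, minus strand), Ccl3 (chr11:83647843-83649378, minus strand) and Ccl4 (chr11:83662584-83664683, plus strand). Ccl22 (chr8:94745684-94751388, plus strand) and Ccl17 (chr8:94810453-94812036, plus strand) are 59.1 kb apart on chromosome 8, and Ccl24 (chr5:135569937-135573043, minus strand) is alone on chromosome 5. In GENCODE the Ccl2 locus overlaps Gm17268 on the minus strand and the Ccl6 locus overlaps E230016K23Rik on the plus strand. The library kit does not mark strand, so strand cannot tell apart reads from the bases that these loci share. In the word search above, no word of the longest Ccl2 or Ccl6 transcript was found in a transcript of another gene. E230016K23Rik had a group mean of at most 0.332 FPKM in the tables.

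RefSeq promoter windows (build GRCm38.p6, from 250 bases before to 50 after the gene start) were matched for 5 members, Ccl3, Ccl6, Ccl9, Ccl17 and Ccl22. They were searched on both strands for TTCNNNNGAA, the spacing that STAT6 prefers, for TTCNNNGAA, the spacing of other STAT proteins, and for the NF-kB consensus. The windows of the neighbouring CCR4 ligands are shown because both genes were highest in IL-4+LPS, and that of Ccl9 because it held the only NF-kB match of the 5. Matches are in capitals.
Ccl17, chr8:94810203-94810502, plus strand: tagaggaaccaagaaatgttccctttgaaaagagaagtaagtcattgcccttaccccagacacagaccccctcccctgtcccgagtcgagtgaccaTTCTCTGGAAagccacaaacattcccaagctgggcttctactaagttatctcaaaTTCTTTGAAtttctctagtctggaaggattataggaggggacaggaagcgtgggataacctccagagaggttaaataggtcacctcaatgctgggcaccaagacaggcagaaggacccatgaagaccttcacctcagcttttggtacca
Ccl22, chr8:94745434-94745733, plus strand: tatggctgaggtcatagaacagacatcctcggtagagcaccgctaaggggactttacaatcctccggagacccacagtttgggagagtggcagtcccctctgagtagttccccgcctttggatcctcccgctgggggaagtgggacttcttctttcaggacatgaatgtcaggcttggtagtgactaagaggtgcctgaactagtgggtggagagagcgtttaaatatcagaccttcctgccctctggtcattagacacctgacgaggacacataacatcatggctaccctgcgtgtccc
Ccl9, chr11:83578587-83578886, minus strand: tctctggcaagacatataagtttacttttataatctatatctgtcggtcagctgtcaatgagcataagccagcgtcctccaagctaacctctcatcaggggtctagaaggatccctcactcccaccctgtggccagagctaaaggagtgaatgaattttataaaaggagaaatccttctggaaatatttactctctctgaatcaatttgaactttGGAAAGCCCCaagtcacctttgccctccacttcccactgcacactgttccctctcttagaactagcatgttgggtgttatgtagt
The Ccl17 window held TTCNNNNGAA at position -154 from the start site, as TTCTCTGGAA, and TTCNNNGAA at position -99, as TTCTTTGAA. Among all 32851 promoters of the table, 6.95% held the first motif and 8.3% the second. The Ccl9 window held the NF-kB consensus on its opposite strand at position -35, as 4.51% of promoters did on either strand. No match to the 3 motifs lay in the windows of Ccl22, Ccl3 and Ccl6. A match is a likeness of letters only, and enhancers outside these windows were not examined.

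Sequencing depth and cell makeup were checked before the groups were compared. The number of fragments was unknown, since the tables held FPKM only, but steps between low values gave a relative depth of 0.991 to 3.296 with control replicate 1 set to 1, and the 4 replicate 1 samples lay between 0.991 and 1.032. All 5 macrophage markers searched (Emr1, Csf1r, Cd68, Itgam and Lyz2) were present, with summed levels of 19119 to 20503 FPKM in control, 7546 to 7758 with IL-4, 15370 to 16598 with LPS and 6529 to 6921 with both. Lyz2, which encodes lysozyme, carried the sum, with means of 16116 FPKM in control and 4873 with IL-4 (log2 difference -1.73), and Emr1 differed by -1.14. The IL-4 difference was smaller for Csf1r (-0.53), Itgam (-0.50) and Cd68 (-0.21, adjusted p 0.14 by limma). None of the markers of T cells, B cells and fibroblasts reached 1 FPKM. Of 4 mast cell and basophil markers 2 did, with sums of at most 3.28 FPKM in any sample. All 3 neutrophil markers in the tables did, with sums of 130 to 396 FPKM in control, 94.3 to 181 with IL-4, 197 to 458 with LPS and 165 to 375 with both, lowest in replicate 1 of each group. Of 6 dendritic cell markers 2 reached 1 FPKM, Zbtb46 and Fscn1, and none was at 0 throughout. In bulk RNA, a lower level cannot be told apart from fewer cells that express the gene.

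The 10 CC chemokines were a small part of the transcriptome without LPS and a larger part with it. Their summed level was 0.112% to 0.147% of all FPKM in control, 0.156% to 0.254% with IL-4, 1.72% to 2.75% with LPS and 1.48% to 3.0% with both. The ranges of control and IL-4 did not overlap, nor did either overlap the groups with LPS. The 3 genes linked to IL-4 made up little of this sum, at 0.95 to 2.42 FPKM in control, 15.4 to 24.2 with IL-4, 16.3 to 33.1 with LPS and 180 to 547 with both.

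The order of the genes changed with treatment. On the FPKM scale, which is per length and so allows genes to be compared, the control macrophages held mainly Ccl9 (243 ± 11.4 FPKM, SD, n = 3) and Ccl6 (199 ± 64.8), whose ranges overlapped. Ccl3, Ccl5 and Ccl4 followed at 38.5 to 50.0, again with overlap between neighbours, and Ccl2 at 4.73 ± 0.773 stood below them without overlap. Ccl7, Ccl22 and Ccl24 lay between 0.621 and 1.31, and Ccl17 was last at 0.121 ± 0.106. After IL-4, Ccl9 and Ccl6 still led and Ccl2 and Ccl7 had moved ahead of Ccl3, Ccl5 and Ccl4. Ccl7 overlapped Ccl3 there. After LPS the order was Ccl5, Ccl4 and Ccl3, with overlap between neighbours, then Ccl9, then Ccl6, then Ccl2, each apart from the next. In IL-4+LPS, Ccl5 at 4840 ± 1301 FPKM stood alone at the top, Ccl4, Ccl3 and Ccl9 came next, and Ccl2 at 708 ± 376 came after them. From Ccl2 downward each gene overlapped the next one.

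**Figure D1:**
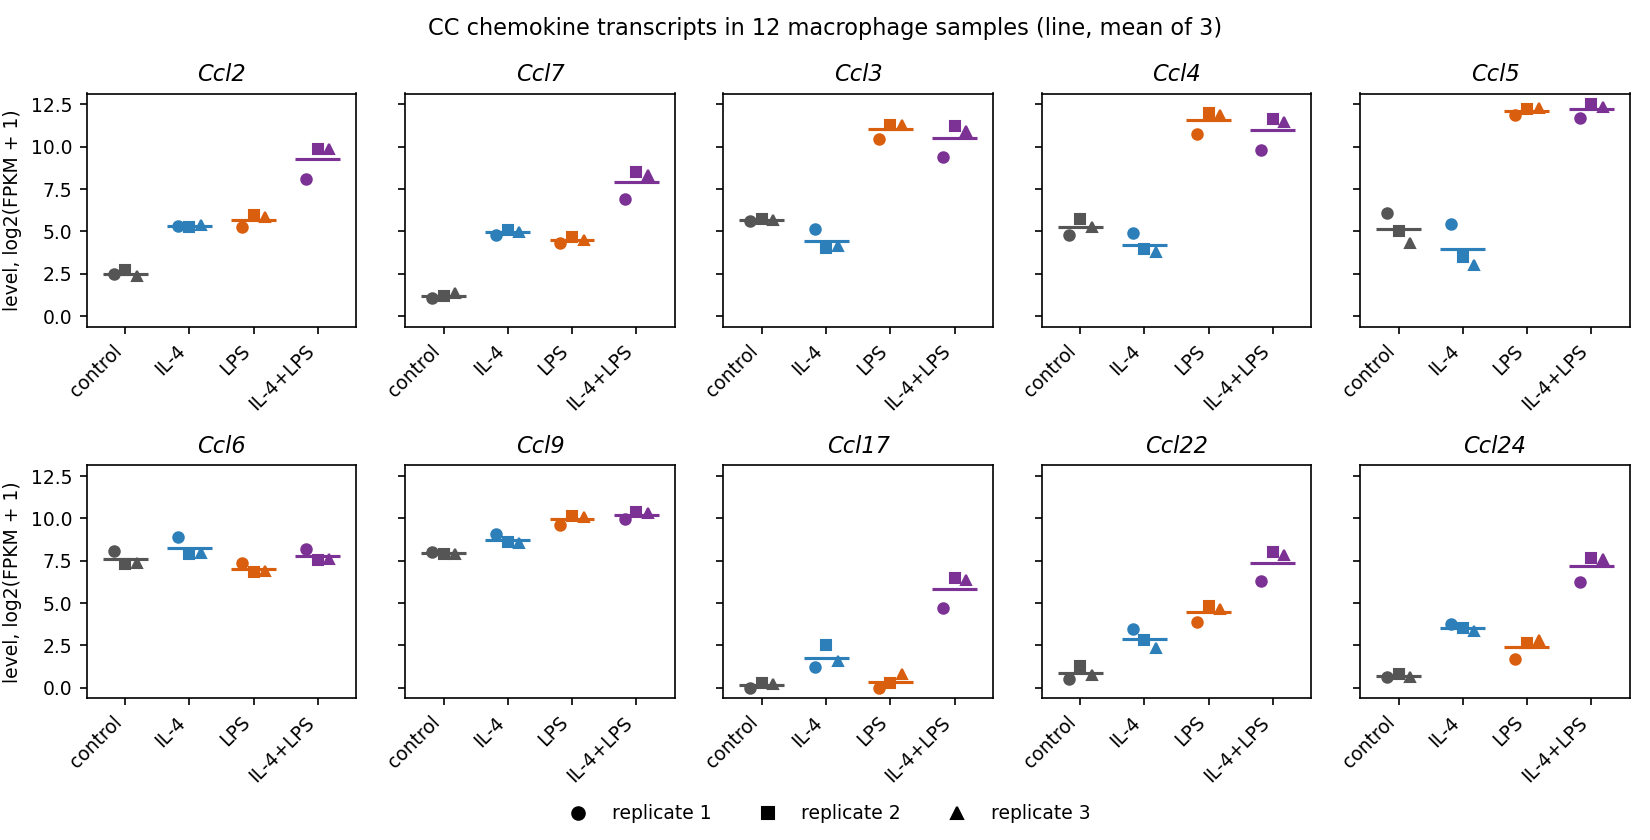
Levels of the 10 CC chemokines as log2(FPKM + 1) on the vertical axis in the 4 groups on the horizontal axis, with a symbol for each replicate number and a line at the mean of 3. Ccl3, Ccl4 and Ccl5 stepped up with LPS in both LPS groups, whereas Ccl2, Ccl7, Ccl17, Ccl22 and Ccl24 were highest in IL-4+LPS, where replicate 1 lay below the other two.

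LPS alone raised 8 of the 10 genes and lowered none (limma on log2(FPKM + 1), adjusted p under the threshold of 0.05), against 16.9% of all rows tested that rose and 57.7% that fell. Of the inflammatory genes 6 of 7 rose, and of the IL-4-linked genes 2 of 3. The median log2 difference was 3.23 over the 10 and -0.44 over all rows. IL-4 alone raised 6 of 10 and lowered none, against 16.0% and 21.0% of all rows. These were all 3 IL-4-linked genes and 3 of the 7 inflammatory ones, and the median difference was 1.22 against -0.05 over all rows. In pretreated cells LPS raised 9 and lowered none, against 15.0% and 57.9% of rows. Compared with LPS alone, IL-4+LPS was higher for 5 genes and lower for none, against 15.0% and 15.8% of rows. These 5 were Ccl17, Ccl22 and Ccl24 together with Ccl2 and Ccl7. At an unadjusted limma p of 0.05 the counts of lower genes stayed at 0 except with IL-4 alone, where Ccl3 was counted. The comparisons share samples, so they are not independent of each other.

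**Figure D2:**
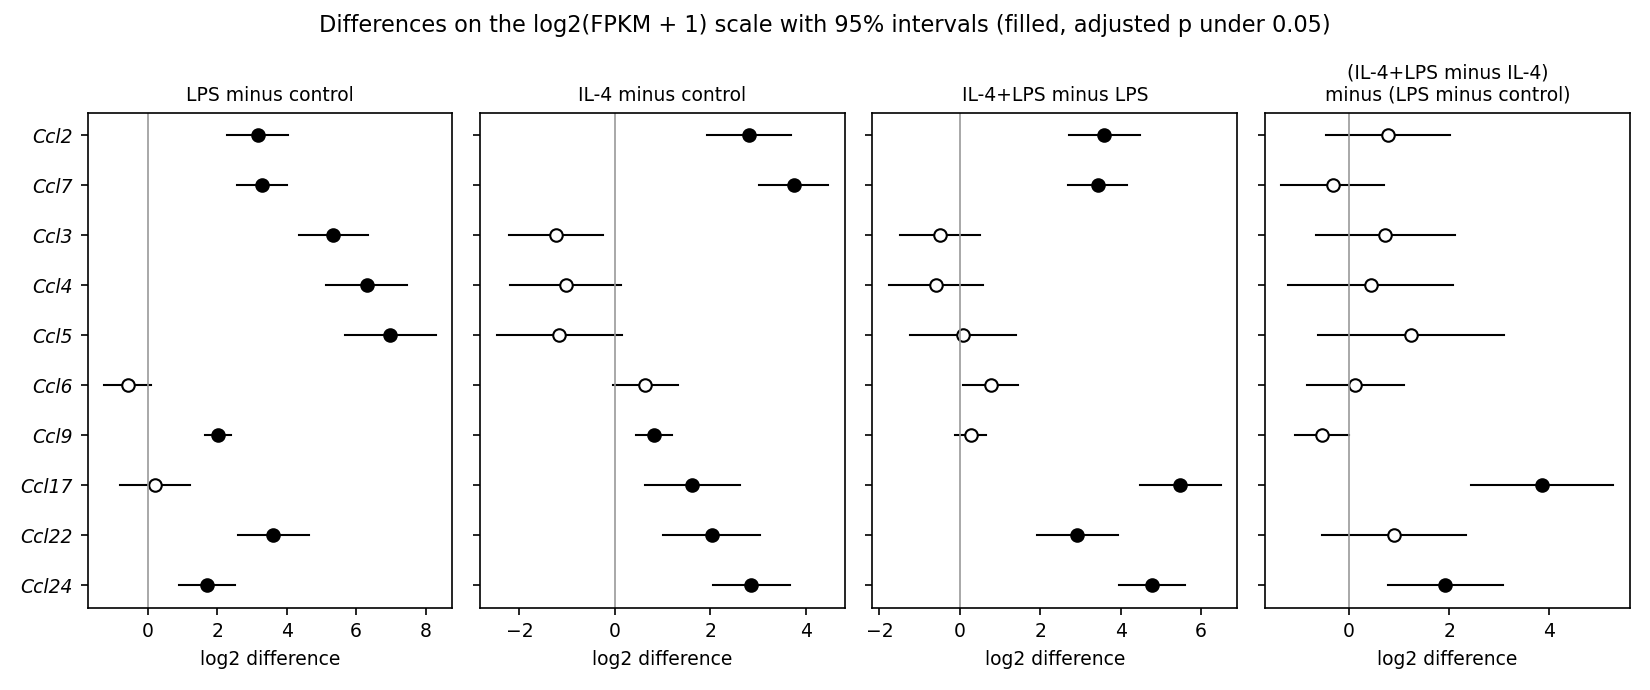
Log2 differences with 95% intervals for the 10 genes in 4 comparisons, 1 panel each (from left to right LPS against control, IL-4 against control, IL-4+LPS against LPS, and the difference of the LPS responses), where filled points passed an adjusted p of 0.05 and the vertical line marks no difference. Ccl2, Ccl7, Ccl22 and Ccl24 are filled in the first 3 of these panels, and Ccl17 and Ccl24 in the last.

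Ccl3, Ccl4 and Ccl5 responded to LPS with the largest rises of the 10 genes, and pretreatment with IL-4 left no difference that passed the test. Ccl3 measured 48.9, 51.9 and 49.2 FPKM in the control samples, 34.1, 15.5 and 16.9 with IL-4, 1424, 2520 and 2476 with LPS and 679, 2399 and 1940 with both. The groups with LPS lay far above the groups without it and overlapped each other, and each IL-4 sample was below each control sample. The LPS rise of Ccl3 was 5.34 ± 0.45 (log2, SE) with an adjusted p of 1.69e-06 (limma), a 42.8-fold difference of the group means. After IL-4 alone the difference was -1.22 ± 0.45 with an adjusted p of 0.0529, just outside the threshold. With LPS present the IL-4 difference was -0.50, with a 95% interval of -1.48 to 0.49 and an adjusted p of 0.446.

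Ccl4, which lies 13.2 kb from Ccl3 and is its closest relative among the 10 by sequence, had a like pattern. Its values were 26.2, 51.3 and 37.8 FPKM in control, 29.5, 14.6 and 12.7 with IL-4, 1734, 4116 and 3792 with LPS and 876, 3232 and 2772 with both. Control and IL-4 overlapped, as did both groups with LPS. The LPS rise was 6.30 ± 0.53 on the log2 scale (limma adjusted p 1.71e-06), the IL-4 difference was -1.03 ± 0.53 (adjusted p 0.156), and IL-4+LPS differed from LPS by -0.60 (95% interval -1.76 to 0.57, adjusted p 0.438).

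Ccl5, whose product also attracts T cells, reached the highest level of the family. It was listed at 66.6, 31.3 and 19.1 FPKM in control, 43.0, 10.1 and 6.98 with IL-4, 3677, 4848 and 4987 with LPS and 3373, 5856 and 5290 with both. Replicate 1 was the highest of its group in both groups without LPS and the lowest in both with it. The LPS rise was 6.98 ± 0.59 (log2, adjusted p 1.92e-06 by limma), a 115-fold difference of means (179-fold without control replicate 1), and 8.22 ± 0.59 (adjusted p 7.36e-07) in pretreated cells. IL-4+LPS differed from LPS by 0.08, with a 95% interval of -1.24 to 1.39 and an adjusted p of 0.944.

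Whether the IL-4 differences of these 3 genes passed depended on the samples and settings used. With replicates 2 and 3 only, the differences after IL-4 alone were -1.58 for Ccl3, -1.62 for Ccl4 and -1.44 for Ccl5, and all 3 passed as lower (adjusted p 3.16e-05, 0.000183 and 0.00244, limma). Without IL-4 replicate 1 alone, Ccl3 and Ccl5 passed and Ccl4 did not. With all 12 samples Ccl3 also passed after quantile normalization (adjusted p 0.0331), after division by the FPKM total (0.0393) and with a filter of 1 FPKM in 3 samples (0.0497). In a fit of only the control and IL-4 samples Ccl3 passed as well (adjusted p 0.0154, limma). The differences between IL-4+LPS and LPS still did not pass for any of the 3 with replicates 2 and 3 only (adjusted p 0.12, 0.0646 and 0.567).

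Ccl2 and Ccl7, the CCR2 ligands, were grouped as inflammatory but rose with either stimulus and were highest with both. Ccl2 measured 4.56, 5.57 and 4.06 FPKM in control, 39.1, 37.9 and 40.1 with IL-4, 37.1, 60.5 and 55.9 with LPS and 273, 922 and 928 with both. IL-4 and LPS alone gave overlapping levels, and the lowest IL-4+LPS sample was above the highest of any other group. On the log2 scale Ccl2 rose by 2.81 ± 0.40 with IL-4 (adjusted p 0.000357), by 3.16 ± 0.40 with LPS (adjusted p 3.31e-05), and was 3.59 ± 0.40 above LPS in IL-4+LPS (adjusted p 6.94e-05, all by limma). In means this was 8.25-fold, 10.8-fold and 13.8-fold.

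Ccl7 was lower than Ccl2 in each group but moved in the same way. Its values were 1.12, 1.25 and 1.56 FPKM in control, 27.0, 33.4 and 29.6 with IL-4, 19.0, 24.2 and 21.8 with LPS and 121, 362 and 322 with both. No pair of groups overlapped, and each IL-4 sample exceeded each LPS sample. Ccl7 rose by 3.75 ± 0.33 (log2) with IL-4 (adjusted p 1.31e-05), by 3.29 ± 0.33 with LPS (adjusted p 6.1e-06), and IL-4+LPS exceeded LPS by 3.43 ± 0.33 (adjusted p 2.61e-05, limma). The IL-4 difference was 22.9-fold in means, the largest IL-4 fold of the 9 genes with a control value above 0 in each sample.

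Ccl24 and Ccl22 had low levels in control and rose with IL-4 and with LPS. Ccl24 measured 0.536, 0.745 and 0.581 FPKM in control, 12.5, 10.6 and 9.37 with IL-4, 2.3, 5.34 and 5.99 with LPS and 75.7, 201 and 195 with both. The 4 groups did not overlap. The log2 difference was 2.86 ± 0.37 with IL-4 (adjusted p 0.00019), 1.70 ± 0.37 with LPS (adjusted p 0.00154) and 4.78 ± 0.37 between IL-4+LPS and LPS (adjusted p 5.15e-06, limma), the last being 34.6-fold in means.

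Ccl22 was higher in each LPS sample than in any IL-4 sample. Its values were 0.414, 1.47 and 0.674 FPKM in control, 10.3, 5.99 and 4.07 with IL-4, 14.0, 27.6 and 24.0 with LPS and 78.8, 260 and 224 with both. The 4 groups again stood apart, rising from control through IL-4 and LPS to the combination. The log2 difference was 2.03 ± 0.46 with IL-4 (adjusted p 0.006), 3.61 ± 0.46 with LPS (adjusted p 3.69e-05) and 2.92 ± 0.46 between IL-4+LPS and LPS (adjusted p 0.000793, limma).

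Ccl17, the neighbour of Ccl22 and the second CCR4 ligand, did not show a rise with LPS alone. It was listed at 0, 0.2 and 0.162 FPKM in control, 1.35, 4.81 and 1.99 with IL-4, 0, 0.205 and 0.746 with LPS and 25.7, 86.7 and 79.7 with both. All control and LPS samples were below 1 FPKM and overlapped, the IL-4 samples were above them, and the IL-4+LPS samples were above all others. The LPS difference was 0.20 (log2, 95% interval -0.80 to 1.20, adjusted p 0.706), the IL-4 difference 1.62 ± 0.45 (adjusted p 0.0172), and IL-4+LPS exceeded IL-4 by 4.06 ± 0.45 (adjusted p 1.65e-05) and LPS by 5.49 ± 0.45 (adjusted p 8.94e-06, limma). IL-4+LPS was 23.6-fold above IL-4 in means, and 38.3-fold without IL-4 replicate 2. The IL-4 call rested on levels of a few FPKM, and was lost without control replicate 1 (adjusted p 0.0522), without IL-4 replicate 2 (0.0672) and with no filter on low rows (0.0568).

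Ccl17 and Ccl22 are also made by dendritic cells, so the markers of that cell type were read beside them. Zbtb46, a transcription factor of classical dendritic cells, was at 0 to 0.135 FPKM in control, 0.166 to 0.474 with IL-4, 0.487 to 0.562 with LPS and 1.94 to 2.83 with both. Fscn1, an actin-bundling protein of mature dendritic cells, was below 1 FPKM without LPS and at 16.9 to 49.2 with LPS and 7.53 to 46.8 with both. The sum of the 6 markers was 0.892 to 1.61 FPKM in control, 0.672 to 1.03 with IL-4, 18.3 to 50.8 with LPS and 10.2 to 50.0 with both. These sums were lowest in replicate 1 of each group. The other 4 markers were low throughout, with Flt3 at most 0.171 FPKM, Xcr1 at most 0.205, Siglech at most 0.514 and Cd209a at most 0.728. Zbtb46 and Flt3 had higher means with both stimuli (2.42 and 0.15 FPKM) than with LPS (0.518 and 0.0979), as did Ccl17 and Ccl22. Cd209a, Siglech, Xcr1 and Fscn1 had lower means with both (0.245, 0.191, 0.087 and 31.3 FPKM) than with LPS (0.403, 0.383, 0.151 and 36.2). By limma this difference passed for Zbtb46 (1.16 ± 0.12, log2, adjusted p 5.47e-05) and not for Fscn1 (-0.41, adjusted p 0.642). The LPS response of Zbtb46 was larger in pretreated cells by 0.826 ± 0.175 (adjusted p 0.0147). The part of such cells in the chemokine levels was not tested.

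Ccl6 and Ccl9, the CCR1 ligands with the highest control levels, spanned the narrowest ranges, with an SD over the 12 samples of 0.56 and 0.94 on the log2 scale where the other 8 had 2.34 to 3.88. Ccl9 measured 256, 234 and 240 FPKM in control, 543, 388 and 374 with IL-4, 790, 1123 and 1072 with LPS and 998, 1334 and 1252 with both. Control, IL-4 and LPS stood apart, and LPS overlapped IL-4+LPS. Ccl9 rose by 2.01 ± 0.17 with LPS (log2, adjusted p 2.05e-06) and by 0.82 ± 0.17 with IL-4 (adjusted p 0.00416), and IL-4+LPS differed from LPS by 0.27 ± 0.17 (adjusted p 0.274, limma). With replicates 2 and 3 only this last difference was 0.24 and passed as higher (adjusted p 0.00684).

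Ccl6 did not pass in any comparison of the 12 samples with group as the only term. Its values were 274, 159 and 165 FPKM in control, 470, 241 and 243 with IL-4, 165, 111 and 116 with LPS and 293, 187 and 194 with both. Replicate 1 was the highest sample of each group. The LPS samples lay below all samples of IL-4 and of IL-4+LPS and overlapped control, and the other groups overlapped each other. The log2 difference was -0.58 with LPS (95% interval -1.27 to 0.10, adjusted p 0.107, beside a median of -0.44 over all rows), 0.64 with IL-4 (-0.04 to 1.33, adjusted p 0.131), -0.46 between IL-4+LPS and IL-4 (-1.14 to 0.23, adjusted p 0.201) and 0.77 between IL-4+LPS and LPS (0.09 to 1.45, adjusted p 0.0833). With replicates 2 and 3 only, Ccl6 was lower with LPS (-0.51, adjusted p 2.92e-05), higher with IL-4 (0.58, adjusted p 7.05e-05) and IL-4+LPS was above LPS (0.74, adjusted p 2.23e-05, limma). With all 12 samples and the replicate number as a block, Ccl6 passed in each pairwise comparison (adjusted p 9.6e-05 to 0.000661, limma). The labels do not say what a shared replicate number means.

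The combined effect was next set against the separate ones. On the linear scale, the gain of a gene is its group mean minus the control mean. For 5 genes the gain in IL-4+LPS exceeded the sum of the IL-4 gain and the LPS gain by a wide margin. Ccl17 gained 63.9 FPKM where the separate gains summed to 2.79 (a ratio of 22.9), Ccl24 gained 157 against 14.1 (11.1), Ccl2 703 against 80.7 (8.71), Ccl22 187 against 26.9 (6.93) and Ccl7 267 against 49.1 (5.44). The other 5 genes were near or below the sum, with ratios of 1.08 for Ccl5, 1.01 for Ccl9, 0.787 for Ccl3, 0.714 for Ccl4 and 0.508 for Ccl6. Formed from same-numbered samples, the ratio ran from 18.7 to 32.9 for Ccl17, from 5.48 to 13.8 for Ccl24, from 4.01 to 10.5 for Ccl2, from 3.33 to 8.43 for Ccl22 and from 2.73 to 6.63 for Ccl7. These ratios are descriptions with no test.

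**Figure D3:**
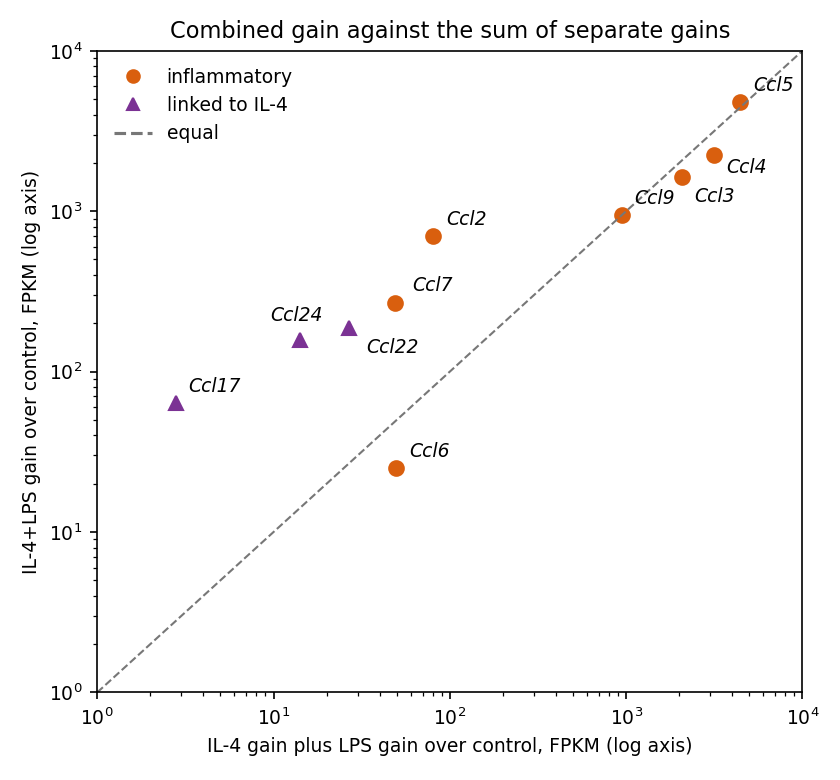
Gain over control in IL-4+LPS (vertical, FPKM, log axis) against the sum of the gains in IL-4 and in LPS (horizontal, FPKM, log axis), 1 point a gene from group means, with inflammatory genes as circles and IL-4-linked genes as triangles. Ccl2, Ccl7, Ccl17, Ccl22 and Ccl24 lie above the dashed line of equality, with ratios of 5.44 to 22.9, and the other 5 genes lie near or below it.

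On the log2(FPKM + 1) scale the interaction asks a different question, namely whether the response to LPS differed between pretreated and untreated cells. The added 1 shrinks the folds of genes with low control levels, so these values are not differences of plain folds. Of the 10 genes 2 passed as higher and none as lower, against 4.58% and 4.63% of all rows, and at an unadjusted p Ccl9 was counted as lower. The LPS response of Ccl17 was larger in pretreated cells by 3.86 ± 0.64 (log2, adjusted p 0.00404), and that of Ccl24 by 1.92 ± 0.52 (adjusted p 0.0444, limma). Neither is among the inflammatory genes. For Ccl2 the difference of responses was 0.78 (95% interval -0.46 to 2.02, adjusted p 0.452), for Ccl22 0.89 (-0.55 to 2.33, adjusted p 0.461) and for Ccl7 -0.32 (-1.35 to 0.71, adjusted p 0.737). These 3 genes gained more FPKM with both stimuli than the separate gains summed to. On the log2(FPKM + 1) scale their departures from the product of the separate responses did not pass, and that of Ccl7 was in the lower direction. The differences for Ccl3, Ccl4, Ccl5 and Ccl6 lay between 0.13 and 1.24, that of Ccl9 was -0.55 (adjusted p 0.202), and none of them passed.

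Both calls depended on the settings. Ccl24 lost its call in 11 of the 12 fits that left out 1 sample, with adjusted p up to 0.106, and kept it only without IL-4+LPS replicate 1. With a pseudocount of 0.1 in place of 1 the value was 1.14 for Ccl24 (adjusted p 0.284) and 3.94 for Ccl17 (adjusted p 0.0624), so that neither passed. The value of Ccl22 was 0.069 with a pseudocount of 0.1 (adjusted p 0.979, limma). In group means its LPS response was 25.6-fold in untreated and 27.6-fold in pretreated cells. Single samples moved these folds, the first to 40.2 without control replicate 2 and the second to 37.3 without IL-4 replicate 1. With replicates 2 and 3 only, 7 genes passed as higher and Ccl9 as lower. The differences were then, with the pseudocount of 1, 4.04 for Ccl17, 2.18 for Ccl24, 1.63 for Ccl22, 1.61 for Ccl5, 1.37 for Ccl3, 1.22 for Ccl4, 1.17 for Ccl2 and -0.45 for Ccl9. That of Ccl7 was 0.08 and did not pass. The fit of replicates 2 and 3 left out the samples that stood apart in these same data, so its calls are no independent test. Its standard error for Ccl3 was 0.138, against 0.63 with all samples. The share of all rows that passed in that fit is not given here.

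**Figure D4:**
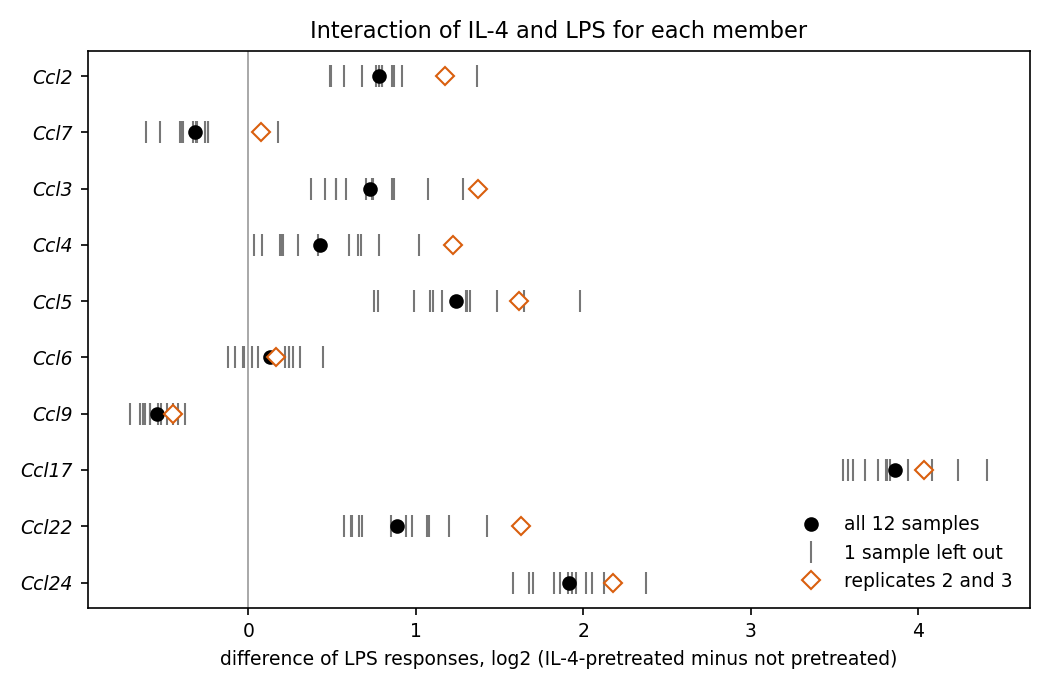
Difference of the LPS responses between IL-4-pretreated and untreated cells (horizontal, log2) for the 10 genes (vertical), with all 12 samples (circle), with 1 sample left out in turn (tick) and with replicates 2 and 3 only (diamond). Ccl17, at 3.86 with all samples, stands to the right of the other genes in each fit.

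Replicate 1 stood apart in IL-4+LPS. Its level divided by the mean of replicates 2 and 3 was 0.292 to 0.382 for Ccl2, Ccl3, Ccl4, Ccl7, Ccl17, Ccl22 and Ccl24. The ratio was 0.605 for Ccl5, 0.772 for Ccl9 and 1.54 for Ccl6. In LPS, replicate 1 was below the others for 9 of the 10 genes, with ratios of 0.406 for Ccl24, 0.439 for Ccl4, 0.545 for Ccl22 and 0.57 for Ccl3. The low values were thus in inflammatory and in IL-4-linked genes. Over all expressed rows, replicate 1 of each group had a Pearson r of 0.954 to 0.962 with replicates 2 and 3. Between replicates 2 and 3 the r was 0.973 to 0.983. The replicate 1 samples were also the shallowest of their groups and had the lowest sums of neutrophil and of dendritic cell markers, and Fscn1 in IL-4+LPS was at 7.53 FPKM in replicate 1 against 46.8 and 39.6. The part of these in the chemokine levels was not tested. With replicates 2 and 3 only, the 5 genes named above were still higher in IL-4+LPS than in LPS, by 3.97 for Ccl2, 3.83 for Ccl7, 5.86 for Ccl17, 3.18 for Ccl22 and 4.90 for Ccl24 on the log2 scale.

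The likeness of patterns was measured as the root mean square difference of log2(FPKM + 1) over the 12 samples after each gene's own mean was taken off, so that a small value means a like course. Among the 10 genes the closest pairs were Ccl2 and Ccl7 (0.435), Ccl3 and Ccl4 (0.462) and Ccl2 and Ccl22 (0.524). Ccl2 and Ccl24 (0.635) and Ccl7 and Ccl24 (0.661) followed. Ccl17 was closer to Ccl24 (0.668) than to its neighbour Ccl22 (1.413), and Ccl6 and Ccl9 were 1.208 apart although alike in sequence.

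Among expressed rows outside the 10, Cish, a suppressor of cytokine signaling, was the closest to Ccl2 (0.554), Ccl7 (0.372) and Ccl24 (0.673), and Slc7a2, an arginine transporter, was the next for all 3. The third was Apol7c for Ccl2 (0.784) and Gm8221 for Ccl24 (0.858). Cish measured 0.709 ± 0.13 FPKM in control, 20.7 ± 5.17 with IL-4, 15.0 ± 8.0 with LPS and 146 ± 69.0 with both. Closest to Ccl5 were Ifit1 (0.45), Rsad2 (0.465) and Mx1 (0.558), all genes known to be induced by interferon. Ccl3 was closest to Fpr2 (0.429), Mmp14 (0.438) and Tnfsf9 (0.448), and Ccl4 to Tnfsf9 (0.433), Isg15 (0.55) and Gpr84 (0.564). Ccl9 was closest to Srgn (0.173), Rcn1 (0.181) and Ak4 (0.192), and Ccl6 to Rnase4 (0.194), Fcrls (0.197) and Ctss (0.208). Ccl22 was closest to AA467197 (0.606), Itgb8 (0.72) and Il12a (0.789), which encodes a subunit of IL-12. Ccl17 had no near neighbour, the closest being Gm8221 (0.835), Apol7a (0.916) and Serpina3g (1.128). Of the 50-base words of Gm8221, 45.1% also occur in transcripts of another gene, so its level is uncertain. Shares of 11.3% to 37.8% were found for Ak4, Fpr2, Tnfsf9, Cish, Apol7a, Serpina3g, Apol7c and Gpr84.

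Few of the other CC ligand genes reached 1 FPKM. Of 14 other CC ligand symbols in the tables, 4 reached 1 FPKM (Ccl8, Ccl12, Ccl25 and Ccl27a) and 7 were listed at 0 in all samples, among them the eotaxin gene Ccl26, the neighbour of Ccl24. Ccl8 and Ccl12 lie between Ccl7 and Ccl5 on chromosome 11. Ccl8 measured 0, 1.01 and 0.327 FPKM in control, 27.0, 17.3 and 18.3 with IL-4, 10.2, 7.55 and 6.4 with LPS and 58.5, 76.9 and 63.1 with both, and so rose with IL-4 (3.95 ± 0.26, log2, adjusted p 1.81e-06), with LPS (2.69 ± 0.26, adjusted p 4.75e-06) and further with both (2.90 ± 0.26 over LPS, adjusted p 1.58e-05, limma). Ccl8 was the third closest row to Ccl7 (0.687). Ccl12, a CCR2 ligand, was at most 1.0 FPKM without LPS, at 33.9 to 59.2 with LPS and at 75.1 to 89.2 with both, a difference of 0.95 ± 0.22 between the last pair of groups (adjusted p 0.00779). Of the 4 expressed ligands 2 rose with LPS (16.9% of all rows did) and 1 with IL-4 (16.0%). Higher with both stimuli than with LPS were 2 (15.0%). No call was in the lower direction, against 57.7%, 21.0% and 15.8% of all rows. In neither Ccl8 nor Ccl12 was IL-4+LPS replicate 1 far below the others.

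The genes between the members on chromosome 11 were counted as well. Of 21 expressed rows there, other CC ligands left out, 13 rose and 3 fell with LPS, against 16.9% and 57.7% of all rows. With IL-4 1 rose and 8 fell, against 16.0% and 21.0%, and 1 was lower and none higher in the limma comparison of IL-4+LPS against LPS, against 15.8% and 15.0%. The median LPS difference of these 21 rows was 0.83 on the log2 scale. Genes of the same family, Slfn1, Slfn2, Slfn3, Slfn4, Slfn5, Slfn8, Slfn9 and Slfn10-ps, made up most of the rows that rose with LPS. Of that family, Slfn1, Slfn2, Slfn5, Slfn8, Slfn9 and Slfn10-ps also made up most of those that fell with IL-4. Between Ccl22 and Ccl17 lies Cx3cl1, the gene of fractalkine. Cx3cl1 was at 2.47 ± 0.763 FPKM with LPS and 0.723 ± 0.0885 with both, a difference of -0.99 ± 0.15 (log2, adjusted p 0.000542, limma), where both flanking chemokine genes were higher.

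Of the receptors of CC ligands, 6 of 15 symbols reached 1 FPKM. With LPS 2 of the 6 rose and 2 fell (16.9% and 57.7% of all rows did), with IL-4 1 rose and 2 fell (16.0% and 21.0%), and between IL-4+LPS and LPS 1 was higher and 1 lower (15.0% and 15.8%). Those of Ccl17 and Ccl22 (Ccr4) and of Ccl8 (Ccr8) were not among them, with Ccr4 at 0.045 FPKM in 1 LPS sample and at 0 in the others. Ccr1, which binds the products of Ccl3, Ccl5, Ccl6 and Ccl9, was at 9.0 to 9.81 FPKM in control, 22.2 to 28.5 with IL-4, 6.35 to 7.04 with LPS and 13.4 to 14.8 with both, and so rose with IL-4 by 1.29 ± 0.09 (log2, adjusted p 3.45e-06). Ccr3, the receptor of Ccl24, fell with IL-4 by 1.00 ± 0.26 (adjusted p 0.0133), from 5.15 to 8.31 FPKM in control to 2.03 to 4.28. Ccr2, the receptor of Ccl2 and Ccl7, was at 6.47 to 10.4 FPKM in control and 1.25 to 4.12 in LPS (-1.52 ± 0.39, adjusted p 0.00418, limma). Ccrl2, an atypical receptor, rose with LPS from 4.09 to 5.01 FPKM to 86.5 to 117.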

How the data were processed

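RNA was extracted from 12 cultures of BMDMs, and per the labels poly-A libraries were prepared with a kit that does not mark strand. Per the submitters' processing notes, which give no roles, TopHat2 2.0.7, Cufflinks 2.0.2 and mm10 were used. The deposited tables held FPKM values, 1 table per sample, that the authors computed from the mapped reads. FPKM is a share of the sample, so a large rise in some genes lowers the values of the others. Fragment counts were not used here, and no interval from counting error could be formed. Starts were counted from 0 in the tables and 1 was added.

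Rows with at least 1 FPKM in at least 1 sample made up the 11191 rows tested, the cutoff of the study. Values were transformed to log2(FPKM + 1), which understates the changes of low genes. With limma 3.58.1 (R 4.3.3, eBayes with an intensity trend), 1 mean per group was fitted to the 12 samples together, with Benjamini-Hochberg adjustment over all 11191 rows of each contrast and a threshold of 0.05, and the script was tested on simulated data. The interaction is (IL-4+LPS minus IL-4) minus (LPS minus control). Members and lists were chosen with earlier results of these data known. All 10 members are described. Values are given for other CC ligands and CC receptors with a group mean of at least 10 FPKM, except that 1 receptor and the coding window of 1 member are not reported here. Ccr2, Ccr4, Ccr8, Ccl25 and Ccl27a were named after their values were seen. For each member the 3 closest expressed rows by pattern are named, and genes near the members were counted. Among rows between or near members, E230016K23Rik, Ccl26, Cx3cl1 and the Slfn genes were named after their values were seen. Promoters are RefSeq windows of GRCm38.p6, and coding sequences, strands and 50-base words are from GENCODE vM21. Figures were drawn with matplotlib 3.10.9.

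Alternatives were a pseudocount of 0.1, no filter, median scaling, quantile normalization, a filter of 1 FPKM in 3 or more samples, division by the FPKM total, no trend, only the compared groups, the replicate number as a block, replicates 2 and 3 only, unadjusted p, a 2-fold minimum, and each sample left out in turn.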

Additional observations from a re-analysis of the deposited data

Results flagged for a closer look

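The difference of the LPS responses passed its own test for Ccl17, at 3.86 (log2, SE 0.64, adjusted p 0.00404 by limma), and for Ccl24, at 1.92 (SE 0.52, adjusted p 0.0444). Neither passed with a pseudocount of 0.1 (adjusted p 0.0624 and 0.284). Ccl24 also did not pass with no filter (0.122), quantile normalization (0.0698), division by the FPKM total (0.105) or in 11 of the 12 fits without 1 sample, so its difference is not settled by these data. Groups of 3 samples were too small for a formal test of single outlying samples. Replicate 1 is therefore described by its levels and by fits without it. The fits of replicates 2 and 3 only left out samples that stood apart in these same data. Their adjusted p-values are therefore descriptions wherever they are given.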

How the results depend on the processing

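Over the 50 results of the 10 genes, 1125 of 1189 alternatives (94.6%) kept the direction and the side of the threshold, 32 moved a result past the threshold, 20 took it back, and 12 changed the sign of a difference that had not passed. Many alternatives kept the estimate by construction, such as leaving out a sample outside the pair of groups compared, unadjusted p or the 2-fold minimum. They could move only the p-value or the threshold, so this share overstates stability. The counts of 8, 6, 9 and 5 genes called higher in the 4 pairwise comparisons stayed within 1.5 times under each alternative. The count called lower became 1 with LPS and with LPS after IL-4 under the replicate block and with replicates 2 and 3 only (Ccl6). With IL-4 it became 1 (Ccl3) with the filter of 3 samples, quantile normalization, division by the FPKM total, only the compared groups or unadjusted p, 3 with replicates 2 and 3 only, and 0 to 2 with 1 sample left out. The interaction count called higher became 0 with a pseudocount of 0.1, 1 with no filter, quantile normalization or division by the total, 7 with replicates 2 and 3 only, and 1 to 3 with 1 sample left out. It became 1 called lower (Ccl9) with replicates 2 and 3 only or unadjusted p. Differences that changed sign when 1 sample was left out were those of Ccl17 with LPS (range -0.025 to 0.377), of Ccl3 and Ccl5 between IL-4+LPS and LPS (-0.851 to 0.059 and -0.079 to 0.319), and of Ccl7 and Ccl6 in the interaction (-0.611 to 0.177 and -0.123 to 0.447). That of Ccl5 was also -0.265 with quantile normalization, and that of Ccl7 was 0.078 with replicates 2 and 3 only. The cause was not tested. The interaction could not be fitted from only the compared groups, since it uses all 4.

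The labels do not say what a shared replicate number means, and the deviations of same-numbered samples had r of 0.00236 to 0.386, with 11 of 18 above 0.1 (mean 0.124, against -0.0596 and 5 of 36 for different numbers). Deviations from a group mean cancel within the group, so the mean for different numbers is tied to that for same numbers and is no independent comparison. Of the 12 samples 9 were most like their own number. Not every pair was above 0.1, so no pairing was assumed, although the numbers may mark a shared source. With the replicate block 1 gene was called lower with LPS, 7 were higher with IL-4 and 6 were higher in IL-4+LPS than in LPS, in each case by the addition of Ccl6, which passed in all 4 pairwise comparisons (adjusted p 9.6e-05 to 0.000661).

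Median scaling and quantile normalization moved the median of all rows with LPS from -0.44 to -0.14 and -0.12, and with LPS after IL-4 from -0.41 to -0.12 and -0.15. The share of calls that were higher went from 22.6% to 40.0% and 40.2%, and from 20.6% to 39.3% and 37.1%. Ccl17 was at 0 in 2 samples, control replicate 1 and LPS replicate 1. Their relative depths of 1.0 and 1.032 were the lowest of their groups, and the number of fragments behind a 0 is unknown.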
